A study of Mus musculus with 5 samples.

Results

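Microexons are very short cassette exons, and those of up to 36 nt are described here in the left ventricle of diabetic and control mice. A member was any cassette exon, an exon that a transcript either holds or skips, that stood in all 6 deposited comparison tables and was no longer than 36 nt, a choice that used length and no measured value. This gave 524 of 6331 exons, in 458 named genes, with 9 exons left unnamed. The hearts came from C57BL/6 mice that were 12 weeks old. Control mice (2 libraries) had received intraperitoneal citrate buffer and STZ mice (3 libraries) streptozotocin at 70 mg/kg in the same buffer, each daily for 5 days from the age of 8 weeks. Streptozotocin kills pancreatic beta cells, the source of insulin, and is a standard way to make mice diabetic, and the design text calls the treated mice a type I diabetes model. The tissue is the whole ventricle wall, so a value is an average over cardiomyocytes and all other cells, and fewer cells of a type cannot be told apart from less RNA per cell.

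Library codes in the tables match no sample title. The libraries were therefore assigned from group size alone, since 2 libraries always stand first in the tables and 3 second, and carry the letters A and B in Control and A, B and C in STZ. The codes also form a pair of naming series that splits as the groups do, so a difference in handling and the treatment cannot be told apart in any comparison below. The labels do not say that the samples of a group are separate animals, and p-values measure the spread between these libraries.

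Splicing factors must recognise a microexon with little room for enhancer sequence inside it, and they rely heavily on motifs in the introns beside it. In neurons the Ser/Arg-repeat protein Srrm4 is the best known activator of microexons and Ptbp1 a repressor, while muscle and heart include other short exons under Rbfox, Mbnl and Celf proteins. A coding microexon whose length divides by 3 adds or removes a few amino acids without shifting the frame, often at the surface of a protein or next to a domain that binds a partner.

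Sequences are shown for the microexons on which the results turn. They were read from GENCODE M21 mouse transcripts (build GRCm38) in which the exon and both neighbouring introns had the same lengths as in the tables. Coordinates are those of the tables, in mm9. The microexon is in capitals, with 12 coding bases of each neighbouring exon in lower case, all 5′ to 3′ on the transcript, and Atp2c1 is given as the exon alone because its upstream neighbour is not coding throughout. The first set holds microexons called different between the groups with large changes of inclusion.
Sptan1 (15 nt, chr2:29869678-29869692, plus strand): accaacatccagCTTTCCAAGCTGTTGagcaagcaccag
Map4k4 (9 nt, chr1:40065176-40065184, plus strand): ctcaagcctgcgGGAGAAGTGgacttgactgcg
Max (27 nt, chr12:78062250-78062276, minus strand): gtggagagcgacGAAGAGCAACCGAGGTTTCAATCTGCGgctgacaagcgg
Tmed2 (21 nt, chr5:124993496-124993516, plus strand): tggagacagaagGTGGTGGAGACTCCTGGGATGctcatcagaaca
Lama2 (12 nt, chr10:26741267-26741278, minus strand): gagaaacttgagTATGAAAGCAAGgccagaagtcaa
Clstn1 (30 nt, chr4:149000196-149000225, plus strand): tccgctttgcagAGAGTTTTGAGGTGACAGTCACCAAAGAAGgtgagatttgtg
Tnrc6a (33 nt, chr7:130318940-130318972, plus strand): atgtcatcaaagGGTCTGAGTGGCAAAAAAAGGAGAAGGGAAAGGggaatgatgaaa
Fam168a (27 nt, chr7:107967250-107967276, plus strand): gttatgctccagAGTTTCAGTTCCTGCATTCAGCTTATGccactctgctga
Ythdf3 (33 nt, chr3:16103187-16103219, plus strand): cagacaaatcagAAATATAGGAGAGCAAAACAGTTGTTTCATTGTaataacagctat
Atp2c1 (12 nt, chr9:105395873-105395884, minus strand): ATGCTAGAAAAG
The second set holds microexons of related genes that share most of their bases, shown so that their bases can be set beside their inclusion.
Cpeb2 (24 nt, chr5:43660108-43660131, plus strand): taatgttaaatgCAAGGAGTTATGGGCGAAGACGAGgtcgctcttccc
Cpeb3 (24 nt, chr19:37180281-37180304, minus strand): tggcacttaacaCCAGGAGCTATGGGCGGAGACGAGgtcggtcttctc
Cpeb4 (24 nt, chr11:31818801-31818824, plus strand): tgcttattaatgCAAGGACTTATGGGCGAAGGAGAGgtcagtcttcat
Ppp3ca (30 nt, chr3:136594975-136595004, plus strand): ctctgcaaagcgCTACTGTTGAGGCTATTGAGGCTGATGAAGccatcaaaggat
Ppp3cb (30 nt, chr14:21322469-21322498, minus strand): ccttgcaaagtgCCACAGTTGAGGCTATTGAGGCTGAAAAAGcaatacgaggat
Ptbp1 (34 nt, chr10:79324759-79324792, plus strand): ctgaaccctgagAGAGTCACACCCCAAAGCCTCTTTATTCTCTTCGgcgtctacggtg
Ptbp2 (34 nt, chr3:119427530-119427563, minus strand): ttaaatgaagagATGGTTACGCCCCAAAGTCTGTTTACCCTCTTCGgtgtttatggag
The third set holds 3 exons of 36 nt in genes that are not related, shown because the exons are alike all the same.
Fam168b (36 nt, chr1:34880865-34880900, minus strand): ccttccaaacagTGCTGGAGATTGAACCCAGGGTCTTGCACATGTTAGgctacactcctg
Homer1 (36 nt, chr13:94156300-94156335, plus strand): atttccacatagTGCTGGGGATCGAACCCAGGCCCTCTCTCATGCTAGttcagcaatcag
Nrf1 (36 nt, chr6:30040269-30040304, plus strand): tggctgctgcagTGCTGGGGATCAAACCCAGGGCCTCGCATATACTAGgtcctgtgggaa
The last set holds short exons of heart muscle genes, Tnnt2 with a Psi that varied little between libraries and Ldb3 with a Psi that its reads do not follow.
Tnnt2 (9 nt, chr1:137746956-137746964, plus strand): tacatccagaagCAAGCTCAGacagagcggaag
Ldb3 (15 nt, chr14:35382899-35382913, minus strand): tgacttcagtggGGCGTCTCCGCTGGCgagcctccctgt

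Members differed from longer cassette exons in features that the length limit does not fix. Their length was a multiple of 3 in 377 of 524 (71.9%), against 2564 of 5807 (44.2%) of the exons over 36 nt. The exon and both introns could be placed in an annotated transcript for 430 members, and 365 of these (84.9%) lay wholly in coding sequence, against 61.8% of the longer exons that could be placed. A further 20 lay in 5′ untranslated sequence, 7 in 3′ untranslated sequence, 16 across a coding boundary and 22 in noncoding transcripts. Among placed microexons with a length divisible by 3, 295 of 319 (92.5%) were coding, and among the others 70 of 111 (63.1%). The coding microexons began at the first base of a codon in 161 cases, at the second in 132 and at the third in 72. The intron before a microexon had a median length of 1489 nt and the one after it 1552 nt, against 2024 nt and 1874 nt around longer exons. The median GC content was 48.5%, and 50% in longer exons.

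The members held little direct read evidence per exon. The tables sort the reads of an event into those that fit the including isoform alone, the skipping isoform alone, both, or neither, and only the reads of the first and second kind, called informative here, tell the isoforms apart. Informative reads made up 7.27% to 7.88% of all class reads on microexons in the 5 libraries, and 20.3% to 21.7% on longer exons. They numbered 139027 and 167307 on microexons in the Control libraries and 136298, 127191 and 108388 in the STZ libraries. Each STZ library thus held fewer than either Control library.

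Read support was nearly missing in the shortest exons. Not one inclusion-only read was assigned to any of the 31 exons of 3 nt in any library, beside 41322 exclusion-only reads. Among all exons of 3 to 6 nt, 53 of 60 (88.3%) lacked an inclusion-only read, as did 17 of 52 at 8 to 12 nt, 20 of 62 at 13 to 18 nt, 19 of 97 at 19 to 24 nt, 26 of 102 at 25 to 30 nt and 18 of 151 at 31 to 36 nt. No exon of 7 nt was among the members. In total 153 of 524 microexons (29.2%) had no inclusion-only read in the 5 libraries, against 272 of 5807 longer exons (4.68%). Whether the authors' alignment could place a read across so short an exon was not tested, and a Psi near 0 in the shortest exons is a statement about assigned reads only. The 5 shortest members by the order of the table were exons of 3 nt, among them those of Mgrn1, a ubiquitin ligase, with mean Psi 0.005 in Control and 0.00667 in STZ, and of Sdcbp, the adaptor syntenin, with 0.01 and 0.03.

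**Figure D1:**
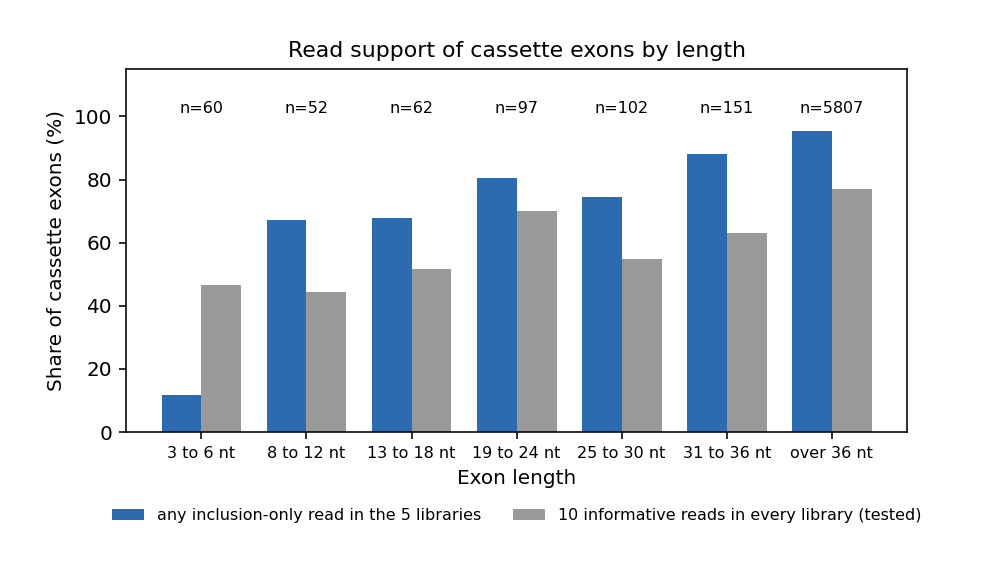
Share of cassette exons (vertical axis, %) with any inclusion-only read in the 5 libraries (blue) and with the 10 informative reads per library needed for a test (grey), by exon length (horizontal axis), with the number of exons above each pair of bars. At 3 to 6 nt 88.3% of exons had no inclusion-only read, yet 46.7% could be tested through reads of the skipping isoform.

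A test needed at least 10 informative reads in each of the 5 libraries, and 302 of 524 microexons met this, 212 with a length divisible by 3 and 90 without. The tested exons lay in 272 genes, 21 genes held several of them, and 15 overlapped another member, so the members are not independent of each other. Of the 302, 57 had no inclusion-only read in any library. The other 222 members are described by their reads above and enter no test. A median tested microexon had 89.5 and 109 informative reads in the Control libraries and 83, 65 and 58.5 in the STZ libraries.

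The authors deposited inclusion as Psi, the estimated fraction of transcripts that contain the exon. Tested microexons had lower Psi than longer exons. The median Psi of those with a length divisible by 3 was 0.345 and 0.36 in the Control libraries and 0.33, 0.325 and 0.28 in the STZ libraries. For the other microexons the medians were 0.65 and 0.68 in Control and 0.555, 0.545 and 0.56 in STZ, and for all exons over 36 nt 0.87, 0.89, 0.83, 0.82 and 0.82 in the same order. The frame-keeping microexons, named so by length alone, had the lowest median in each library. Between 36.3% and 38.7% of them had a Psi under 0.10, and 16.0% to 18.4% a Psi over 0.90. Frame was not separated from length here. Median Psi of tested exons was 0.022 at 3 to 6 nt and 0.114 at 8 to 12 nt. At these lengths 48 of 60 and 49 of 52 members had a length divisible by 3. Over 36 nt, exons divisible by 3 also had the lower median in each library, 0.79 to 0.85 against 0.84 to 0.91. Of the microexons whose length does not divide by 3, 34.4% to 42.2% had a Psi over 0.90. Longer exons had a Psi under 0.10 in 15.7% to 16.4% of cases. Exons without any inclusion-only read weigh on these levels, 42 of the 212 tested microexons that keep the frame, 15 of the 90 others and 67 of the 4467 longer exons. Leaving them out, a choice made after seeing the data that itself removes low values, the medians in the same order of libraries were 0.585, 0.625, 0.51, 0.51 and 0.46 for microexons that keep the frame, 0.87, 0.92, 0.87, 0.89 and 0.87 for the others, and 0.875, 0.9, 0.84, 0.83 and 0.82 for longer exons. The microexons that keep the frame still had the lowest medians, and the others no longer lay below the longer exons in all libraries.

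**Figure D2:**
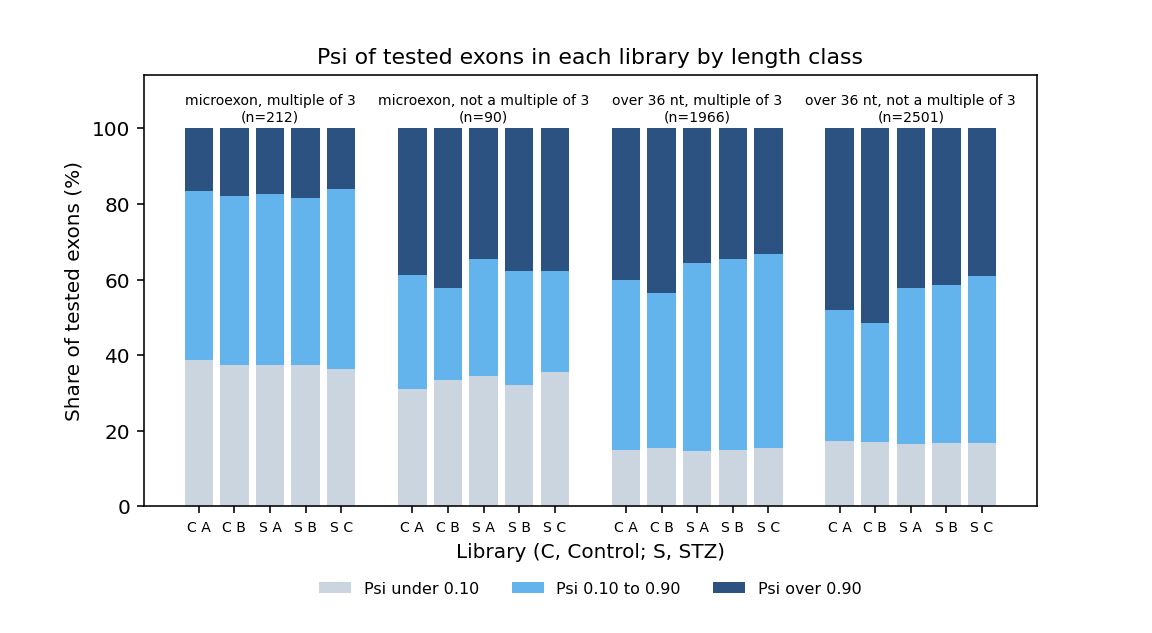
Share of tested exons (vertical axis, %) with Psi under 0.10, from 0.10 to 0.90 and over 0.90 in each library (horizontal axis; C, Control; S, STZ), for microexons and longer exons split by whether the length divides by 3. Microexons that keep the frame have the smallest share over 0.90, between 16.0% and 18.4% in the 5 libraries.

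At the length limit, the 50 exons of exactly 36 nt stood beside 71 exons of 37 to 39 nt. Of these 37 and 48 were tested, with median mean Psi 0.66 and 0.863 in Control and 0.603 and 0.767 in STZ. All exons of 36 nt have a length divisible by 3, while those of 37 to 39 nt mix both frame classes. Medians over all libraries also varied between single lengths, at 0.732 for 34 nt, 0.446 for 35 nt and 0.684 for 36 nt. The exons of 37 to 39 nt were not split by frame, and whether Psi steps at the limit was not tested.

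Comparing STZ with Control asks how exon use in the heart differs in diabetic mice. Between STZ and Control hearts 38 microexons were called different in Psi, 26 lower and 12 higher in STZ. Of the 12 called higher, 3 (Kdm1a, Map4k3 and Plec) had no inclusion-only read in any library, and 1 of the 26 called lower (Dtnbp1) differed by a single rounding step of Psi. The largest falls were in alpha-II spectrin (Sptan1), the kinase Map4k4, and Fam168a, and the largest rise was in the m6A reader Ythdf3. The exons are ordered below by the roles of their genes, an order made after the calls were known and tested for no role. The 38 calls (12.6% of 302) were made with limma on logit Psi at a Benjamini-Hochberg adjusted p under 0.05 over all 4769 tested exons, of which 15.0% were called. The share called lower was 8.61% against a background of 10.1%, and the share called higher 3.97% against 4.84%. The share of microexons called was thus close to that of cassette exons in general, and exons over 36 nt were called in 15.1% of cases.

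Calls were spread over both frame classes, 27 of 212 (12.7%) with a length divisible by 3 and 11 of 90 (12.2%) without. By length, 2 of 37 tested exons of 3 to 9 nt were called, 6 of 46 of 10 to 18 nt, 14 of 102 of 19 to 27 nt and 16 of 117 of 28 to 36 nt. The change of mean Psi was at least 0.10 in 27 of the 38, 23 lower and 4 higher, and at least 0.20 in 15. Of the 675 called exons over 36 nt, 458 changed by at least 0.10, 316 lower and 142 higher, and 270 by at least 0.20. Taking a limma p under 0.05 before adjustment together with a change of at least 0.10, 45 microexons passed this looser rule (14.9%; 13 higher and 32 lower) against a background of 18.7% (5.77% higher and 13.0% lower). The groups did not overlap in Psi in 124 of the 302 (41.1%), 53 higher and 71 lower, beside 42.9% of all tested exons (14.1% and 28.8%), and they did not overlap in any of the 38. The median change of Psi was 0.00 over tested microexons and -0.01 over all tested exons, and the median size of the change was 0.025, against 0.035 over 36 nt.

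A second test used the informative reads themselves, in a quasi-binomial model with moderated dispersion fitted to all 4769 exons. It called 63 microexons (20.9%; 17 higher and 46 lower in STZ), beside 21.6% of all tested exons (7.63% higher and 13.9% lower). Of the 38 limma calls 28 passed with the same direction in this read model too, and 24 of the 27 calls with a change of at least 0.10. Over 36 nt these counts were 480 of 675 and 374 of 458. In the authors' deposited tables, 12 of the 524 microexons had a difference of at least 0.20 with 1 sign and a Bayes factor, the evidence for a difference over that for none, of at least 10 in all 6 comparisons. Of the 12, 10 were among the 302 tested (3.31%), where the background was 4.03%. Those 10 were Sptan1, Map4k4, Max, Hnrnpc, Clstn1, Lama2, Tmed2 and Ythdf3, which limma also called, and Arhgap21 and Ldb3, which it did not. The other two, a 33-nt exon of Whrn (mean Psi 0.76 in Control and 0.16 in STZ) and a 9-nt exon of Iffo1 (0.23 and 0.807), had as few as 6 and 7 informative reads in a library and were not tested.

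**Figure D3:**
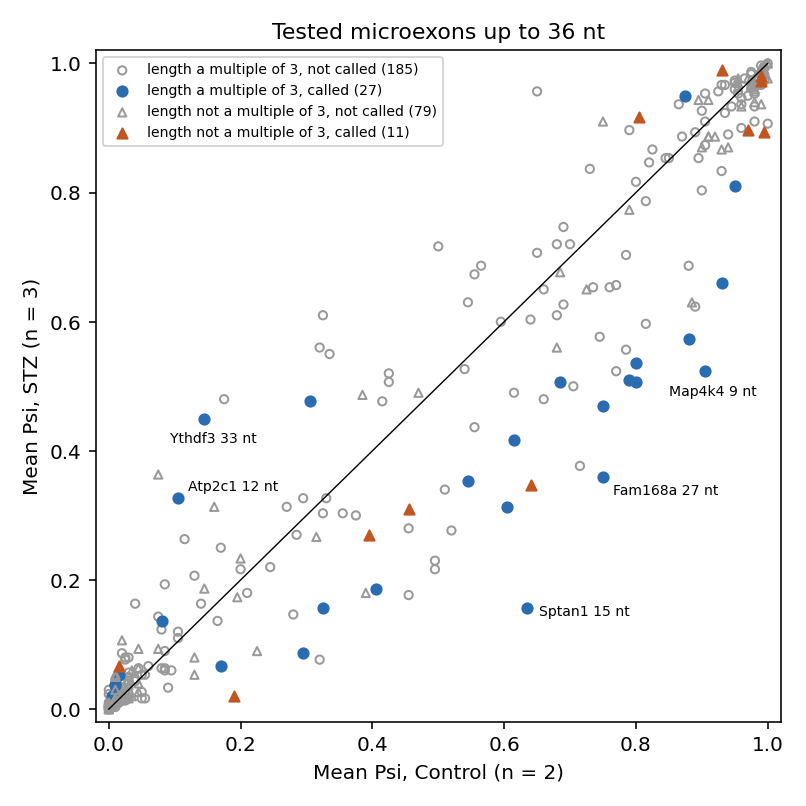
Mean Psi of the 302 tested microexons in Control (horizontal axis, 2 libraries) and STZ (vertical axis, 3 libraries), as circles where the length divides by 3 and triangles where it does not, filled where called by limma. The line marks equal inclusion, and 26 of the 38 called exons lie under it.

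With only 2 Control libraries, the calls leaned on each library. Leaving out Control A left 9 called microexons and leaving out Control B left 11. Without STZ A 23 were called, without STZ B 16, and without STZ C 21. In the same order, 8, 8, 18, 10 and 16 of the 38 kept their call. Exactly 6 calls held without any of the 5 libraries in turn, those of Max (27 nt), Ythdf3, Cog1, Serinc3, Smpx and Dtnbp1, and 10 were lost in each case. Sums over the markers of most cell types listed moved with the groups as well. Values per gene are not given, and 1 gene may carry a sum. The endothelial sum holds Egfl7 and Pecam1, the fibroblast sum Fn1 and Postn, and the neuron and glia sum Mbp and Ncam1. Summed over the events of the marker genes with a cassette exon, as reads per 1e6 reads of all events, cardiomyocyte genes (7 of 12 listed) came to 102142 and 103004 in Control and 69810, 62824 and 57139 in STZ, smooth muscle genes (3 of 5) to 2683 and 2802 against 953, 824 and 1036, and endothelial genes (2 of 6) to 1953 and 1720 against 3295, 4263 and 5674. Fibroblast genes (2 of 6) came to 239 and 213 against 165, 98.0 and 142, neuron and glia genes (2 of 8) to 31.1 and 29.6 against 53.2, 33.99 and 37.03, and leukocyte genes (2 of 4), whose groups overlap, to 82.3 and 70.6 against 115.5, 58.5 and 132.0. No marker gene with an event was at 0. The part of these shifts and of the lower depth in STZ in the results below was not tested.

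**Figure D4:**
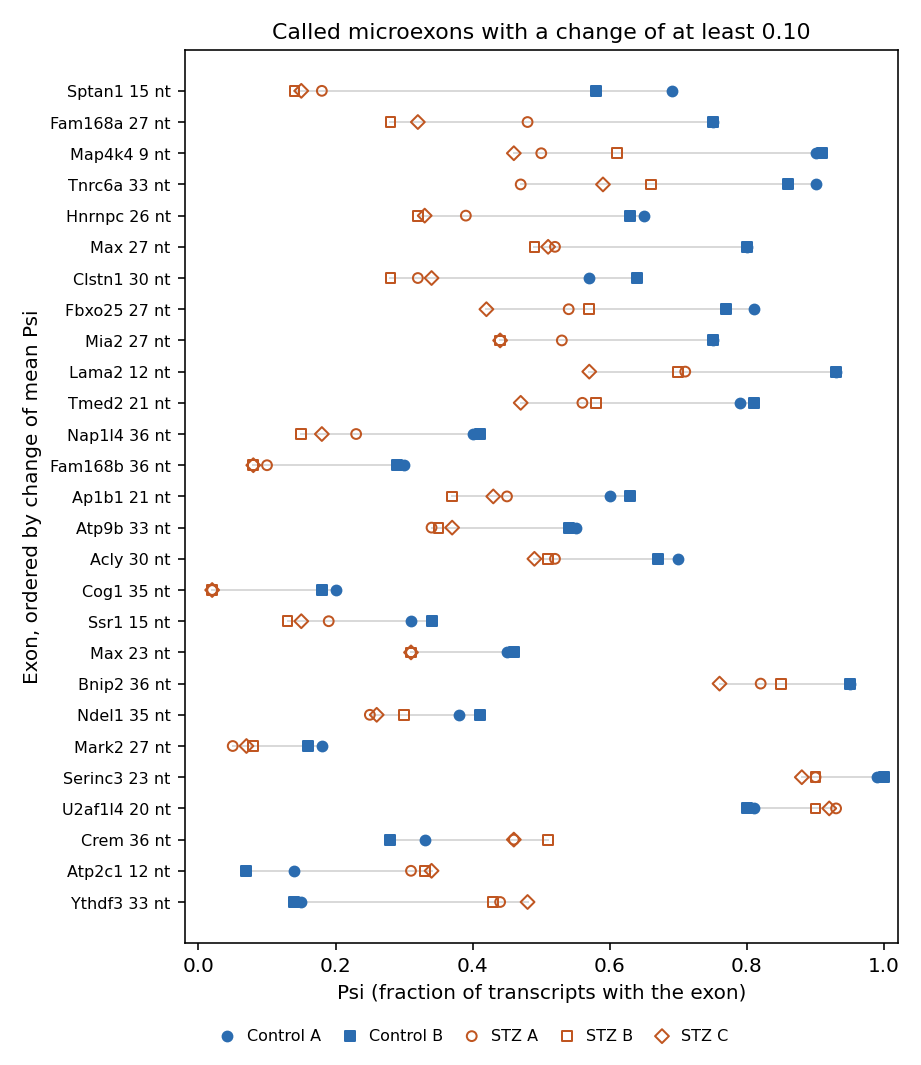
Psi (horizontal axis) in each of the 5 libraries for the 27 called microexons whose mean Psi differed by at least 0.10, ordered by the change, with Control libraries filled and STZ libraries open. The groups do not overlap in any of them, and 23 have lower Psi in STZ.

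Among proteins of the cytoskeleton and the cell surface, Sptan1 had the largest called change. Sptan1 encodes the alpha chain of non-erythroid spectrin, which lines the inner face of the cell membrane. Psi of its 15-nt exon was 0.69 and 0.58 in the Control libraries and 0.18, 0.14 and 0.15 in the STZ libraries. Each STZ library was far below both Control libraries, and the mean fell from 0.635 ± 0.0778 (SD, n = 2) to 0.157 ± 0.0208 (n = 3), a log odds change of -2.25 with a standard error of 0.193 (limma adjusted p = 0.0131; read model 1.91e-12). The reads moved the same way, with 340 including and 105 skipping in Control A, and 61 and 223 in STZ C. The limma call was lost without STZ B and without STZ C (adjusted p at most 0.0581).

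Lama2 encodes the alpha-2 chain of laminin, which joins the basement membrane to muscle fibres. Its 12-nt exon had Psi 0.93 and 0.93 in Control and 0.71, 0.7 and 0.57 in STZ. Inclusion was nearly complete in both Control libraries and lower in all STZ libraries, and the mean fell by 0.27 (limma adjusted p = 0.0233; read model 4.55e-06). Clstn1, the transmembrane cadherin-related protein calsyntenin, had Psi 0.57 and 0.64 against 0.32, 0.28 and 0.34 at a 30-nt exon. The Clstn1 groups did not overlap, and its mean fell by 0.292 (limma adjusted p = 0.023), a call that was lost whichever of the 5 libraries was left out.

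Dystrophin (Dmd), which ties the actin skeleton to laminin through a membrane complex, moved the other way. The member is its 32-nt exon 78 in the matched transcript, chrX:82442843-82442874, next to the end of the coding sequence. Psi was 0.93 and 0.93 in Control and 0.99, 1.0 and 0.98 in STZ. Skipping reads made the difference, numbering 20 and 22 in Control and 1, 2 and 4 in STZ. The mean rose from 0.93 to 0.99 (limma adjusted p = 0.0352; read model 0.000458). Smpx, a small muscle protein of the cytoskeleton, had a 35-nt exon in its 3′ untranslated sequence with Psi 0.97 and 0.97 against 0.9, 0.89 and 0.9. It fell by 0.0733, little beside the others, and yet kept its call without each library in turn (adjusted p at most 0.0226).

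Other cytoskeletal members gave less certain differences. A 35-nt exon of Ndel1, a partner of dynein, fell from 0.395 ± 0.0212 to 0.27 ± 0.0265, and lies in a noncoding transcript. Dtnbp1, whose product dysbindin works in lysosome-related organelles, was called at a 23-nt exon with 0.99 in both Control and 0.98 in every STZ library, a step of 0.01 that equals the rounding of the deposited values (read model adjusted p = 0.552). Macf1, which links microtubules to actin, had Psi 0.8 and 0.74 against 0.55, 0.59 and 0.43 at an 18-nt exon. Its groups were apart, but limma gave an adjusted p of 0.0717 and the read model 0.000876. A second Macf1 microexon, of 15 nt, had 0 inclusion-only among 1199 informative reads in Control and 1709 in STZ, which allow a read share of up to 0.250% and 0.176% (3 reads, counting error only).

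Among microtubule-tip proteins, a 6-nt exon of Clip1 had Psi 0.24 and 0.41 in Control and 0.66, 0.59 and 0.58 in STZ. It was one of 4 exons of 3 to 6 nt with inclusion-only reads in every library, 43 and 70 in Control and 142, 104 and 81 in STZ. All STZ libraries were higher (limma adjusted p = 0.0819; read model 5.26e-05). Of 4 tested microexons of Clasp1, which stabilises microtubule ends, none was called, and 1 of 24 nt stood at 0.895 in Control and 0.853 in STZ while the other 3 had means under 0.10. Arhgap21, a GTPase-activating protein, had the largest uncalled fall, from 0.72 and 0.71 to 0.43, 0.43 and 0.27 at a 30-nt exon (limma adjusted p = 0.0542; read model 0.00024).

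Among heart muscle genes, the 9-nt exon of cardiac troponin T (Tnnt2), the thin-filament protein that anchors the troponin complex, had 10602 to 16290 inclusion-only reads per library. Its Psi was 0.67 and 0.69 in Control and 0.75, 0.7 and 0.71 in STZ. The groups were just apart, by 0.01 between the nearest libraries, and the difference was not called by limma (adjusted p = 0.283) but was by the read model (0.00854).

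Ldb3, the Z-disc protein also known as Cypher or ZASP, shows where Psi and reads parted. Psi of its 15-nt exon was 0.59 and 0.71 in Control and 0.91, 0.99 and 0.97 in STZ. Skipping reads in the same libraries numbered 0 and 0 in Control and 8, 0 and 1 in STZ, beside 72, 88, 249, 262 and 183 inclusion-only reads. By reads alone skipping was thus not seen in Control (0 of 160, which allows up to 1.88%), and the read share was 1 in Control and 0.988 in STZ. Limma gave an adjusted p of 0.104 and the read model 0.398, although the exon passed the rule on the authors' Bayes factors. The difference in Psi is therefore given as the authors' value and not as a change.

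Among kinases, Map4k4, a Ste20-family kinase upstream of JNK signalling, had Psi 0.9 and 0.91 in Control and 0.5, 0.61 and 0.46 in STZ at a 9-nt exon. Both Control libraries included the exon in nearly all transcripts, and the STZ libraries did so in about as many transcripts as they skipped it. The mean fell by 0.382 (log odds -2.16, standard error 0.218; limma adjusted p = 0.0165; read model 7.48e-09), with exclusion-only reads at 14 and 19 in Control and 134, 86 and 125 in STZ. The call ended when any library but STZ B was left out (adjusted p at most 0.0935).

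Mink1, a kinase of the same family, had 0.44 and 0.47 against 0.37, 0.26 and 0.21 at a 24-nt exon, a difference that passed in the read model (adjusted p = 0.00918) but not in limma (0.162). Mark2, a kinase of microtubule-associated proteins, fell at a 27-nt exon from 0.17 ± 0.0141 to 0.0667 ± 0.0153 (limma adjusted p = 0.046). Map4k3 was called at a 6-nt exon on Psi of 0.01 and 0 against 0.02 in each STZ library. It had 0 inclusion-only reads in all 5, which allow a share of up to 1.23% in Control and 1.49% in STZ, so no difference was detectable at this depth.

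Among genes of membrane traffic, Tmed2, a p24 cargo receptor of the early secretory pathway, had Psi 0.79 and 0.81 in Control and 0.56, 0.58 and 0.47 in STZ at a 21-nt exon. The groups were clearly apart, and the mean fell from 0.8 ± 0.0141 to 0.537 ± 0.0586 (limma adjusted p = 0.0271; read model 1.02e-10). Exclusion-only reads numbered 239 and 269 in Control and 563, 337 and 387 in STZ although the STZ libraries were shallower.

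Other genes of membrane traffic were called lower as well. Mia2, which helps load large cargo at exit sites of the endoplasmic reticulum, went from 0.75 and 0.75 to 0.53, 0.44 and 0.44 at a 27-nt exon (limma adjusted p = 0.024), while a second microexon of 22 nt fell by 0.0167 in limma alone (read model 0.567). Ap1b1, a subunit of the AP-1 clathrin adaptor, fell from 0.615 ± 0.0212 to 0.417 ± 0.0416 at 21 nt. Ssr1, a subunit of the translocon-associated complex, fell from 0.325 ± 0.0212 to 0.157 ± 0.0306 at 15 nt. Atp9b, a lipid flippase of the Golgi, fell from 0.545 ± 0.00707 to 0.353 ± 0.0153 at 33 nt. Cog1, a part of the Golgi tethering complex, fell from 0.2 and 0.18 to 0.02 in each STZ library at 35 nt, with inclusion-only reads at 11 and 14 in Control against 0, 0 and 1 in STZ (limma adjusted p = 0.00267), and kept its call without each library.

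Serinc3, a multi-pass membrane protein, had Psi 0.99 and 1.0 against 0.9, 0.9 and 0.88 at a 23-nt exon. Exclusion-only reads numbered 0 and 0 in Control and 71, 106 and 114 in STZ (limma adjusted p = 0.00267; read model 5.41e-07). The 0 of 1335 informative reads in Control allow a skipped share of up to 0.225%, so skipping of this exon was seen in STZ libraries alone at this depth.

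Atp2c1, the calcium and manganese pump of the Golgi, had Psi 0.14 and 0.07 in Control and 0.31, 0.33 and 0.34 in STZ at a 12-nt exon, a rise by 0.222 (limma adjusted p = 0.0485; read model 0.0101) on 4 to 10 inclusion-only reads per library. A second Atp2c1 microexon, of 36 nt, stood at 0.9 and 0.803 and was not called. Vps29, a retromer subunit, rose from 0.08 in both Control libraries to 0.14, 0.15 and 0.12 at 12 nt (limma adjusted p = 0.0377; read model 0.0699). Exoc1 of the exocyst (21 nt) and Gopc, a Golgi-associated PDZ protein (24 nt), each had a change of mean Psi of -0.278 with groups apart, which limma did not call (0.0978 and 0.108) and the read model did (0.0046 and 0.000962). Dnm1l, the dynamin-related protein that divides mitochondria, had 0.19 and 0.16 against 0.43, 0.63 and 0.38 at a 33-nt exon (limma adjusted p = 0.0884; read model 0.000736).

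In gene regulation, Max gave one of the most stable calls. Max is the partner with which Myc and its antagonists bind DNA. Psi of the 27-nt exon was 0.8 and 0.8 in Control and 0.52, 0.49 and 0.51 in STZ. The libraries of each group lay within 0.03 of each other, and the mean fell by 0.293 (log odds -1.36, standard error 0.056; limma adjusted p = 0.00395; read model 1.54e-06). A 23-nt form of the same exon with another end fell from 0.455 to 0.31, but it shares the exclusion-only reads of the 27-nt form and is no separate evidence.

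Ythdf3 reads N6-methyladenosine in messenger RNA. Its 33-nt exon had Psi 0.15 and 0.14 in Control and 0.44, 0.43 and 0.48 in STZ. This was the largest called rise, by 0.305 (limma adjusted p = 0.00714; read model 5.39e-07), with skipping reads at 85 and 127 in Control and 13, 11 and 17 in STZ. Crem, a cAMP-responsive transcription factor, rose from 0.305 ± 0.0354 to 0.477 ± 0.0289 at 36 nt in limma (adjusted p = 0.0457), and the read model gave 0.172.

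RNA-processing proteins were on both sides. Hnrnpc, which packages nascent RNA, had Psi 0.65 and 0.63 against 0.39, 0.32 and 0.33 at a 26-nt exon of its 5′ untranslated sequence (limma adjusted p = 0.0159). Tnrc6a, a scaffold of microRNA silencing, had 0.9 and 0.86 against 0.47, 0.66 and 0.59 at 33 nt (limma adjusted p = 0.0453). Its reads moved less than its Psi, from a share of 0.94 to 0.823 (read model 0.0572). U2af1l4, a relative of the factor that recognises the 3′ splice site, rose from 0.81 and 0.8 to 0.93, 0.9 and 0.92 at 20 nt, with 3 and 4 skipping reads in Control and 0 of 133 informative reads in STZ (up to 2.26%). Luc7l2, a protein of the U1 snRNP, had 0.59 and 0.64 against 0.52, 0.5 and 0.45 at 30 nt (limma adjusted p = 0.0771; read model 5.35e-05).

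A few calls rested on few or no inclusion-only reads. Kdm1a, the histone demethylase LSD1, has a known neuronal microexon of 12 nt, and Psi here was 0.01 and 0.01 against 0.04, 0.04 and 0.03. It had 0 inclusion-only reads in all 5 libraries, which allow up to 1.99% in Control and 2.70% in STZ. A 36-nt exon of Plec, the linker protein plectin, was called on the same kind of values with 0 inclusion-only reads, and a 31-nt exon of Chd8 with 0 and 0 against 1, 1 and 1. Inclusion of these exons was at the limit of detection in both groups. Mef2a, a transcription factor of muscle, had 0.74 and 0.83 against 0.7, 0.5 and 0.47 at a 24-nt exon, which passed in the read model (adjusted p = 0.000248) but not in limma (0.179).

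The remaining calls of at least 0.10 were in genes of other roles. Fam168a had Psi 0.75 and 0.75 against 0.48, 0.28 and 0.32 at 27 nt, on 4 to 36 inclusion-only reads per library (limma adjusted p = 0.0493). Its relative Fam168b fell from 0.3 and 0.29 to 0.1, 0.08 and 0.08 at 36 nt (adjusted p = 0.0107). Fbxo25, a ubiquitin ligase subunit, fell from 0.79 ± 0.0283 to 0.51 ± 0.0794. Nap1l4, a histone chaperone, fell from 0.405 ± 0.00707 to 0.187 ± 0.0404, and Bnip2, a signalling adaptor, from 0.95 in both Control libraries to 0.81 ± 0.0458. Acly, which makes cytosolic acetyl-CoA from citrate, fell from 0.685 ± 0.0212 to 0.507 ± 0.0153 at 30 nt in limma (adjusted p = 0.0233), while the read model gave 0.248. Other calls under 0.10 were a rise in Ddb1, a subunit of a DNA damage ubiquitin ligase, from 0.015 to 0.0533, and one in the casein kinase Csnk1g3 from 0.875 to 0.95.

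**Figure D5:**
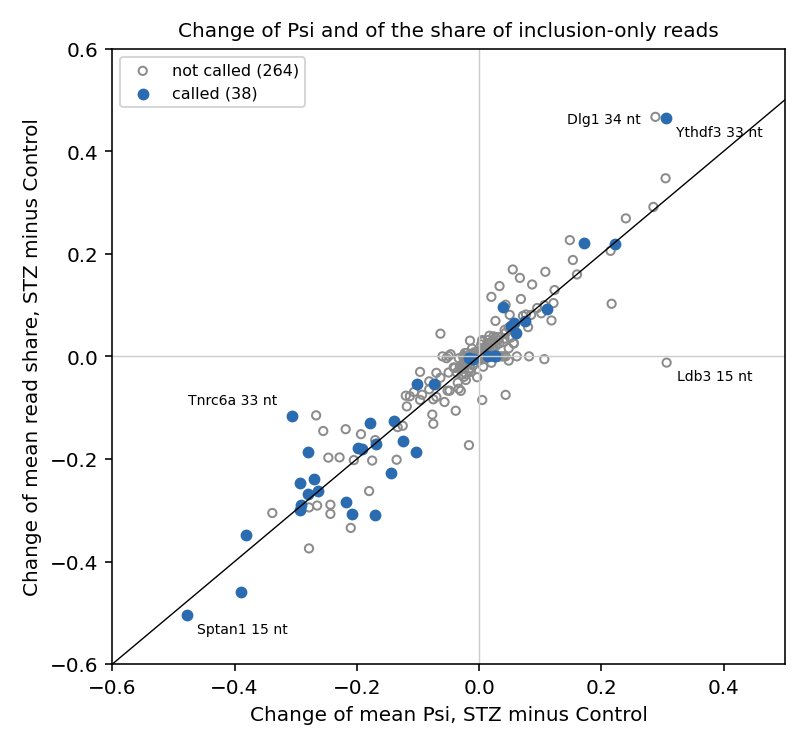
Change of mean Psi (horizontal axis) and of the mean share of inclusion-only among informative reads (vertical axis), STZ minus Control, for the 302 tested microexons, filled where called by limma. Most points follow the line of equal change, and the 15-nt exon of Ldb3 lies far off it, with a Psi change of 0.307 and a read share change of -0.0122.

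The read share is not corrected for length and rises with it, so Psi and read share are set side by side for microexons alone. In Control the mean Psi and the mean read share lay over 0.20 apart in 15 of 302 microexons (4.97%). Changes between the groups differed by over 0.10 between both measures in 15 microexons as well. Of the 69 microexons with a Psi change of at least 0.10, the read share went the opposite way in 2.

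Exons in genes known for microexons or for heart and muscle splicing, a list of 78 genes, were seldom called by limma. The list held 61 members in 40 genes and 41 tested ones in 29 genes, and 2 of the 41 were called, Sptan1 lower and Kdm1a higher. Over all tested exons the share called was 15.0%. The read model called 12 of the 41 (29.3%; 4 higher and 8 lower), beside 21.6% of all tested exons. So few limma calls among 5 libraries do not show that the others were alike in both groups. Picalm, which brings clathrin to membranes, had 0.67 and 0.32 in Control and 0.23, 0.21 and 0.25 in STZ at 24 nt, with a wide gap between the Control libraries (limma adjusted p = 0.221; read model 0.00195). Abi1, a part of the WAVE actin regulator, had 0.6 and 0.81 against 0.54, 0.5 and 0.46 at 15 nt (0.204 and 0.0193). Agrn, which gathers acetylcholine receptors at nerve endings, had 0.5 and 0.35 against 0.45, 0.64 and 0.47 at 12 nt, groups that overlap.

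Members with an intermediate Psi that varied least over the 5 libraries included those in Agfg2, Aplp2, Bsg, Cask, Clta, Pecam1, Phb2, Ptbp3 and Tnnt2. Pecam1, the endothelial adhesion molecule, had 0.49, 0.45, 0.49, 0.52 and 0.46 at a 23-nt exon. Its Psi overlapped between groups, which the choice by smallest range favours. Summed reads of the endothelial genes, Egfl7 and Pecam1 itself, were higher in STZ. The read share of the Pecam1 exon did differ, at 0.663 in Control and 0.779 in STZ (read model adjusted p = 0.00485; limma on Psi 0.671). Of the others the read model called Tnnt2, as given above, and Aplp2 (adjusted p = 0.0467). Clta, the light chain of clathrin, had 0.26 and 0.28 against 0.33, 0.33 and 0.28 at 36 nt. The Psi of Phb2, the mitochondrial prohibitin, ran from 0.4 to 0.48 at 6 nt, but the exon had 0 exclusion-only reads in any library, so that this level too is not one that informative reads give.

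The regulators linked to microexons were described through their own cassette exons, since the tables hold no expression level. Of 22 listed genes 13 had an exon in all tables and 12 a tested one, and of their 24 tested exons 7 were called higher and 3 lower in STZ, in 6 genes. Over all tested exons 4.84% were called higher and 10.1% lower. The called exons of Ptbp1 overlap each other, as do those of Tra2b, and they are not separate evidence. A limma call was reached by none of the 4 of these exons that are microexons. Ptbp2, the neural paralog of Ptbp1, had 0.82 and 0.95 against 0.76, 0.5 and 0.63 at a 34-nt exon (limma adjusted p = 0.179; read model 0.0959). The exon of Ptbp1 at the same place was at 0.92 and 0.9 against 0.96, 0.95 and 0.92. The 34-nt exon of Ptbp3 lies elsewhere, as exon 2 of its matched transcript, with mean Psi 0.315 in Control and 0.267 in STZ. Mbnl2, a muscleblind protein, had 0.04 and 0.01 against 0.07, 0.09 and 0.08 at 36 nt, with inclusion-only reads at 0 and 0 in Control against 17, 10 and 8 in STZ (limma adjusted p = 0.15; read model 0.0554).

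Microexons alike in sequence could differ widely in Psi. Of 4805 pairs of equally long microexons of at least 18 nt compared base by base without gaps, 16 had at least 65% of bases in common, most of them in paralogs. The 24-nt exons of Cpeb2 and Cpeb3, which control translation through the tail of messenger RNA, shared 21 of 24 bases (87.5%), as did those of Cpeb2 and Cpeb4. Mean Psi was 0.88 in Control and 0.687 in STZ for Cpeb2, 0.17 and 0.25 for Cpeb3, and 0.015 and 0.01 for Cpeb4. For Cpeb2 the read model gave an adjusted p of 0.0386 and limma 0.166, and the other two passed neither test. In the calcineurin catalytic subunits Ppp3ca and Ppp3cb 26 of 30 bases were shared, with Psi 0.735 and 0.94 in Control. Ptbp1 and Ptbp2 shared 26 of 34 bases (76.5%), with Psi 0.91 and 0.885 in Control and 0.943 and 0.63 in STZ.

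The alike exons of 36 nt were in unrelated genes. Homer1, a scaffold of the postsynaptic density and of calcium signalling, and Nrf1, a transcription factor for mitochondrial genes, shared 30 of 36 bases (83.3%), and Fam168b shared 28 of 36 (77.8%) with each. Their Psi did not move together. Fam168b fell as given above, Homer1 had 0.14 and 0.09 against 0.33, 0.18 and 0.28 (limma adjusted p = 0.142; read model 0.0115), and Nrf1 had 0.12 and 0.21 against 0.13, 0.1 and 0.18.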

How the data were processed

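RNA sequencing of left ventricle gave 6 deposited tables, each setting 1 Control library against 1 STZ library with MISO, per the file headers; no library was pooled. The submitters' processing notes name CASAVA 1.8.2, TopHat and the build mm9; the versions of TopHat and MISO and the annotation of events were not given in the sources used here. The fraction Psi was deposited as MISO's posterior mean with 2 decimals, per the file headers. The authors' read counts in 4 classes and their differences are of a unit recorded as other, and the Bayes factor they deposited is a ratio, per the file headers. The 36 other columns of values per library were not used.

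The 6331 exons in all 6 tables were kept. Genes and regions came from matching the lengths of the exon and both introns to GENCODE M21, which named 430 of the 524 microexons, then from the files (57), the skipping junction (16) or a shared exon (12). Psi was clipped to 0.01 to 0.99 and put on the logit scale. Libraries were compared in limma 3.58.1 (R 4.3.3), two-sided, with moderation and a variance trend on log2 informative reads, and Benjamini-Hochberg adjustment over 4769 exons. The read model was a quasi-binomial fit of inclusion-only and exclusion-only reads with dispersions moderated by limma. Read share is inclusion-only among informative reads, not corrected for length. Both fits were tested on simulated data. Intervals and limits for a count of 0 use 3 reads and cover counting error only, since reads without molecular identifiers are not independent molecules.

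Named exons were all called ones (at most 40 by size), up to 20 others past the looser rule with groups apart, those of the gene list, those at the length limit, and the 10 of intermediate Psi with the smallest range. Exons called by the read model alone, and exons alike in sequence, were named after their values were seen. Of those the rule names, the exon of 1 gene is not reported here. The members and gene lists were chosen with earlier results of these data known. Alternatives tried were other limits on Psi, reads and length, weights, no trend, Psi itself, the read model and each library left out.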

Additional observations from a re-analysis of the deposited data

How the results depend on the processing

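The count of 38 called microexons became 21 with Psi clipped at 0.05, 63 in the read model, and 9 to 23 with a library left out. It was 22 with a length limit of 27 nt and 78 with one of 51 nt. The looser count of 45 became 75 with no filter on reads, and the 12 exons past the authors' rule became 19 at a difference of at least 0.10. The median of each library was also averaged over the libraries of a group. With read share in place of Psi, this mean for microexons divisible by 3 was 0.478 in Control and 0.411 in STZ in place of 0.353 and 0.312. For the others it was 0.80 and 0.760 in place of 0.665 and 0.553. Without exons that had no inclusion-only read, a choice added after seeing the data, 35 were called. The means of the Psi medians were then 0.605 and 0.493 with a length divisible by 3 and 0.895 and 0.877 without. Of the 38 calls, 38 held with array weights, 36 with no trend, 33 with Psi clipped at 0.001, 20 with Psi clipped at 0.05, 28 with Psi itself, 34 with at least 5 reads, 28 with no filter, 28 in the read model, and 34 of the 34 that had at least 20 reads. No called exon changed sign under any of these or with a library left out. Changes of sign are given for the 79 other named exons alone, none of them called, and not for the remaining uncalled microexons. In the read model they were Agfg2 (0.0307), Bsg (0.00258), Clta (-0.0750), Cpeb4 (0.00498) and Ldb3 (-0.0122). With a library left out, the change of Psi ran from -0.04 to 0.005 in Agfg2 33 nt, -0.0433 to 0.0267 in Bsg 29 nt, -0.0633 to 0.00667 in Cask 36 nt, -0.075 to 0.025 in the pair of Clasp1 24 nt exons, -0.02 to 0.01 in Clasp2 24 nt, -0.0267 to 0.123 in Clip1 33 nt, -0.075 to 0.0967 in Dnm2 12 nt, -0.00333 to 0.00667 in Eif4g1 21 nt, -0.1 to 0.03 in Eif4g3 33 nt, -0.0733 to 0.0167 in Nrf1 36 nt and -0.0867 to 0.0533 in Rps24 25 nt. The causes were not tested. No paired analysis was possible because the table columns carry no replicate numbers. Of the 60 exons of 3 to 6 nt, 53 had no inclusion-only read beside 91094 exclusion-only reads in all, and whether reads could be placed across them was not tested. Depth sets the limits given beside counts of 0. With 2 Control libraries, leaving 1 out leaves a single one that is assumed to vary like the STZ libraries.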
